A study of Homo sapiens with 4 samples.

Results

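The transcripts described here encode the machinery through which cells read their nutrient state, namely the mTOR complexes, the GTPases and inhibitors that control them, and the AMP-activated kinase AMPK. The members are a fixed list of 45 genes, and each was read from Affymetrix probe sets whose annotation names that gene alone. Of the 45 genes, 44 had such a probe set and 1, LAMTOR1, had none. All 44 passed the filter on dim signals, out of 12242 genes that passed it in all.

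The cells were HEK293, an established human embryonic kidney line. They were grown for 7 days in DMEM with 10 % FCS, in high glucose (450 mg/dl, 2 arrays) or in low glucose (100 mg/dl, 2 arrays), and glucose was the one stated difference. The labels call the arrays biological replicates and do not say how the cultures were kept apart, so the p-values measure the spread between these 4 samples, which may be technical. The comparison asks how the level of each transcript differs between the 2 glucose concentrations.

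mTORC1 is a kinase complex that promotes protein synthesis and growth when amino acids, growth factors and energy are at hand. Amino acids act through Rag GTPases, which bring mTORC1 to the lysosome, where the GTPase RHEB switches it on. AMPK, switched on by its upstream kinase LKB1 when ATP runs low, and the stress-induced proteins REDD1 and sestrin 2 act against mTORC1. Much of this control works through phosphorylation and protein binding, which an expression array does not measure.

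Each value is a linear signal intensity, scaled by the authors so that the trimmed mean was 200.02 on each array, so they cannot show a shift that most transcripts share. The median signal ran from 33.3 to 33.8 on the high glucose arrays and from 36.7 to 38.7 on the low glucose arrays. All 24 probe sets for the bacterial poly-A spikes, added ahead of labelling, separated the groups. They were higher in high glucose, 3.84-fold at the median. A larger rise was seen in 42 of the 12242 genes tested and in 0 members, so its absence does not set the members apart. The count covers rises only. The hybridisation controls had a median of 486 on high glucose replicate 1, against 875 on high glucose replicate 2 and 869 and 891 on the low glucose arrays. The part of these control differences in the results below was not tested. Of 7 markers of kidney epithelium, 5 passed the filter, led by KRT8 and KRT18, while CDH16 and EPCAM did not. Of 3 leukocyte markers with a probe set 0 passed, and of 6 fibroblast markers 2 passed, COL1A1 and COL3A1. The summed signal of the kidney markers was 14120 and 16520 in high glucose, against 7455 and 7558 in low glucose, and that of the fibroblast markers 536 and 527 in high glucose, against 334 and 384 in low glucose. KRT8 and KRT18 made up most of the kidney sum. PAX8 stood at 145 and 126 in high glucose against 236 and 263 in low glucose. PAX2 stood at 35.7 and 34.6 in high glucose against 37.6 and 54.6 in low glucose. LHX1 went the other way, with 67.3 and 75.1 in high glucose against 32.5 and 21.0 in low glucose. Of 4 neuronal markers 1 passed, NEFL, and their summed signal was 1396 and 1248 in high glucose against 1516 and 1396 in low glucose. Of 3 endothelial markers 1 passed, PECAM1, which was dim, with 48.9 and 20.7 in high glucose against 44.3 and 42.9 in low glucose. The part of these markers in the results was not tested either.

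High and low glucose differed in 27 of the 44 members, of which 6 rose and 21 fell in high glucose (limma, at an adjusted p of 0.05). Over all 12242 genes 57.6% were called, 24.3% higher and 33.3% lower, so the share of members called (61.4%) lay near that of all genes. By direction, 13.6% of members were higher and 47.7% lower, a split that depends on the scaling, as given below. By role the share called was 61.5% of inhibitors, 62.5% of activators, 62.5% of core and effector genes and 57.1% of AMPK genes. The median log2 fold change of high over low glucose was -0.25 over the members and -0.10 over all genes. Differences of 2-fold or more were seen in 6 members, each lower in high glucose, namely DDIT4, SESN2, EIF4EBP1, RRAGD, STK11 and FNIP1, where 8.03% of all genes were lower by as much and 3.42% higher. Both high glucose arrays lay above both low glucose arrays in 14 members and below them in 25, against 33.6% and 46.2% of all genes.

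The split of the calls depends on the scaling. After each array was centred on its median, which moved the median of all genes to 0.07, 13 members were called higher and 13 lower, and 58.8% of the calls over all genes were higher, against 42.1% with the authors' scaling. Centring left 19 of the 27 called members with their call and direction. Another 8 (MLST8, RPS6KB1, RPS6KB2, RHEB, NPRL2, SESN3, PRKAB2 and PRKAG1) kept their direction but lost the call. Of the uncalled members, 7 were then called higher and 2 changed sign. Small differences can therefore gain or lose a call with the scaling. Of the 27 called members, 16 kept their direction and call under each of the alternative settings in which they had a value, 4 higher (LAMTOR3, LAMTOR5, SEH1L and TBC1D7) and 12 lower (DDIT4, SESN2, EIF4EBP1, RRAGD, RRAGC, STK11, FNIP1, FNIP2, PRKAB1, WDR24, RICTOR and TSC1).

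**Figure D1:**
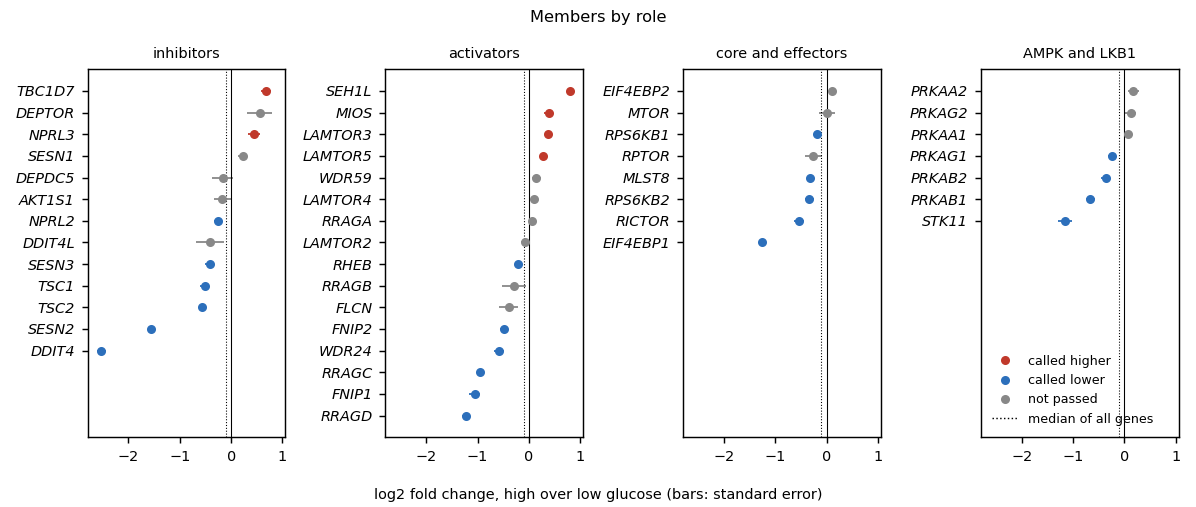
Log2 fold change of high over low glucose for the 44 measured members, in 4 panels by role, with bars for the standard error and colours for the call. The inhibitor DDIT4 lies farthest to the left, at -2.53, and the activator SEH1L farthest to the right, at 0.81, while the dotted line marks the median of all genes at -0.10.

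Among the inhibitors of mTORC1, 6 of 13 members were lower in high glucose, 2 were higher and 5 did not pass. DDIT4, which encodes REDD1, a stress-induced protein that acts through the TSC complex, had signals of 620.0 and 540.3 in high glucose, against 3121 and 3589 in low glucose. Both high glucose arrays lay far below both low glucose arrays. DDIT4 was 5.78-fold lower in high glucose (log2 fold change -2.53 ± 0.09, SE, adjusted p = 1.7e-06), the largest difference among the 44 members.

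SESN2, encoding sestrin 2, a leucine-binding protein that restrains GATOR2 and is induced under nutrient and ER stress, had signals of 386 and 360.0 in high glucose, against 1082 and 1115 in low glucose. The arrays did not overlap, and the log2 fold change was -1.56 ± 0.07 (2.95-fold lower, adjusted p = 3.8e-06). Its further probe set fell by 1.25 log2 units.

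The other sestrins had smaller log2 fold changes than SESN2. SESN3 fell by 0.42 log2 units (adjusted p = 0.0062) in its brightest probe set, and its further 3 kept probe sets did not pass. SESN1, a p53 target, stood at 0.22 (adjusted p = 0.062), with 558 and 487 in high glucose against 459 and 435 in low glucose. The differences between paralogs were not tested. DDIT4L, the REDD2 gene, was dim in both groups and stood at -0.41 (adjusted p = 0.23).

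The promoters of DDIT4 and SESN2 are shown because these inhibitors differed most. Each window runs 5′ to 3′ from 250 bases before to 50 bases after the annotated start, from RefSeq on GRCh38.p14. DDIT4 lies at chr10:72273674-72273973 on the plus strand and SESN2 at chr1:28259268-28259567 on the plus strand. Capitals, here and in the windows further on, mark a match to CACGTG, the palindromic E-box core bound by TFEB-family and other basic helix-loop-helix factors, or to TGATGNAA or its reverse TTNCATCA, the core of the composite element bound by ATF4 with C/EBP proteins.
DDIT4: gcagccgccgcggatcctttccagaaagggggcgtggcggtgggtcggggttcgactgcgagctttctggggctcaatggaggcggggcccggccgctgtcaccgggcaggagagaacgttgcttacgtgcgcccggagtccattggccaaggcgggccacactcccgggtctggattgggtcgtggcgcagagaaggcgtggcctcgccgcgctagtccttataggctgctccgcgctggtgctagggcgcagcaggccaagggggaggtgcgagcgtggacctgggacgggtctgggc
SESN2: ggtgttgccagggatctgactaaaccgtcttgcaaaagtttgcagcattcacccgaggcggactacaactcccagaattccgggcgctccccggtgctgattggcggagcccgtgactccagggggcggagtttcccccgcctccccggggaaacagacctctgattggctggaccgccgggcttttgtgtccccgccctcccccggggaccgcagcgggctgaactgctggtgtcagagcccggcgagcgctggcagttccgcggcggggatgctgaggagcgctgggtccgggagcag
Neither window holds either motif, which says only that these letters are not within it. Among 27305 promoters of the same length, 7.43% held CACGTG and 3.67% held TGATGNAA on either strand, and among the 10005 promoters of measured genes 10.4% and 1.68% did. Promoters were found for 38 of the 45 members, of which 7 held CACGTG (FNIP1, RRAGC, TSC2, NPRL3, RRAGB, LAMTOR1 and LAMTOR4) and 1, TSC2, also held TGATGNAA, overlapping its CACGTG.

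The TSC complex turns RHEB off. TSC2, its GTPase-activating subunit, had signals of 1075 and 1139 in high glucose, against 1635 and 1632 in low glucose, and fell by 0.56 log2 units (adjusted p = 1.4e-04). A second, dim TSC2 probe set stood at 0.79 and did not pass (adjusted p = 0.070). TSC1, the stabilising partner, fell by 0.52 (adjusted p = 0.0015). TBC1D7, the third subunit, moved the other way, with 470 and 488 in high glucose against 324 and 276 in low glucose (log2 fold change 0.68 ± 0.10, adjusted p = 8.5e-04).

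GATOR1 turns off the Rag GTPases RRAGA and RRAGB. Its subunit NPRL2 fell by 0.27 log2 units (adjusted p = 0.0086), and DEPDC5 stood at -0.16 (adjusted p = 0.53). NPRL3 has probe sets called in opposite directions. Its brightest had 625 and 586 in high glucose against 388 and 506 in low glucose (0.45 ± 0.12, adjusted p = 0.015, and adjusted p = 0.082 without high glucose replicate 1). Another fell by 0.67 log2 units, with 246 and 243 in high glucose against 371 and 410.1 in low glucose, so NPRL3 has no settled direction. Without high glucose replicate 1, 1 inhibitor was called higher in place of 2.

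The inhibitory mTOR subunits did not pass. AKT1S1, encoding PRAS40, had 586 and 664 in high glucose against 857 and 580 in low glucose, and the groups overlapped (-0.18, adjusted p = 0.39). Without low glucose replicate 2 it was called lower (-0.46, adjusted p = 0.0054), and without low glucose replicate 1 it stood at 0.11 (adjusted p = 0.39). DEPTOR was dim, with 71.0 and 102 in high glucose against 54.5 and 61.6 in low glucose (0.55 ± 0.25, adjusted p = 0.095). It passed after each of the 3 normalizations, with log2 fold changes between 0.68 and 0.72.

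**Figure D2:**
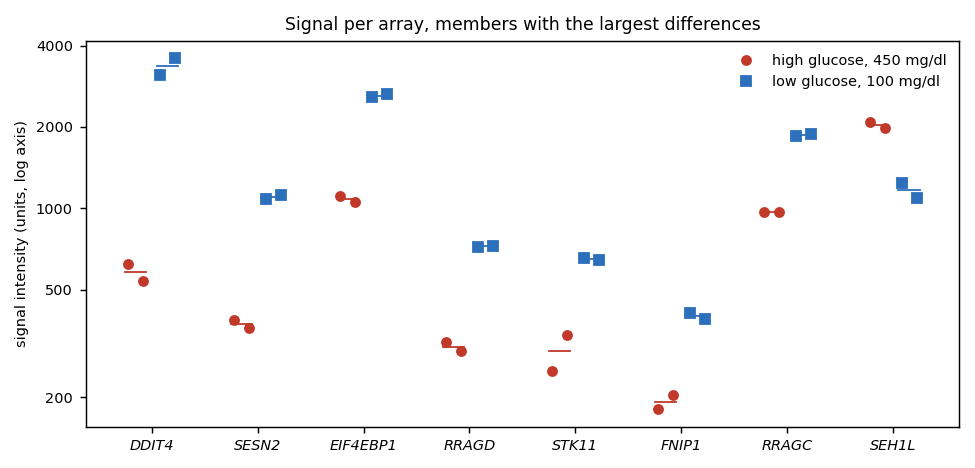
Signal intensity on each of the 4 arrays (log axis) for the 8 called members with an absolute log2 fold change of at least 0.8, with circles for high glucose, squares for low glucose and lines for the means of 2 arrays. The groups do not overlap in any of the 8, and SEH1L alone among them is higher in high glucose.

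Of the 16 measured activators of mTORC1, 6 were lower, 4 were higher and 6 did not pass. Among the Rag GTPases, which work as a pair of RRAGA or RRAGB with RRAGC or RRAGD, RRAGC and RRAGD were lower in high glucose. RRAGD had signals of 319 and 296 in high glucose, against 721 and 727 in low glucose. Both high glucose arrays stood below the low glucose arrays, and RRAGD was 2.35-fold lower (log2 fold change -1.24 ± 0.08, adjusted p = 1.5e-05). Its further probe set fell by 1.84 log2 units, with 163 and 167 in high glucose against 574 and 607 in low glucose.

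RRAGC had signals of 967 and 968 in high glucose, against 1846 and 1884 in low glucose, a 1.93-fold lower level (-0.95 ± 0.05, adjusted p = 1.2e-05). Its further kept probe set fell by 0.79 log2 units. RRAGA had 1591 and 1589 in high glucose against 1558 and 1505 in low glucose, and stood at 0.05 (adjusted p = 0.42). RRAGB was dim and stood at -0.29 (adjusted p = 0.31). Whether the difference of RRAGC or RRAGD exceeds that of RRAGA or RRAGB was not tested.

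FLCN, folliculin, with FNIP1 or FNIP2, activates RRAGC and RRAGD by promoting GTP hydrolysis. FNIP1 had signals of 181 and 205 in high glucose, against 410 and 391 in low glucose. The groups did not overlap, and FNIP1 was 2.08-fold lower (-1.06 ± 0.11, adjusted p = 1.2e-04). Of its further 3 kept probe sets, 1 fell by 0.54 log2 units and the others, both dim, did not pass. FNIP2 fell by 0.49 (adjusted p = 8.0e-04), and of its further 2 kept probe sets 1 fell by 0.28 and the other did not pass (-0.14). FLCN stood at -0.39 in its brightest probe set (adjusted p = 0.11), and its further kept probe set, with 38.8 and 29.6 in high glucose against 117 and 90.9 in low glucose, fell by 1.60 log2 units (adjusted p = 0.0021).

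The FNIP1 promoter lies at chr5:131796968-131797267 on the minus strand of GRCh38.p14. It is shown because, among called members with a promoter, FNIP1 differed most after DDIT4, SESN2 and STK11. Its window holds the E-box core more than once.
FNIP1: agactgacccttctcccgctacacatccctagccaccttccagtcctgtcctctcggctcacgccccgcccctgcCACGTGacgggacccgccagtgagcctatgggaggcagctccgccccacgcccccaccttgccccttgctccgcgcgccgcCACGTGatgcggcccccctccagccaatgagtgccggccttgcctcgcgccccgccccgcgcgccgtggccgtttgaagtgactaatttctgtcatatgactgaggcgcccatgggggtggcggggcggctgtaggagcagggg
The matches begin 175 and 94 bases before the annotated start. RRAGC also held a match, 112 bases before its start. RRAGB, which did not pass, held 3 matches.

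Of the 4 measured subunits of Ragulator, the lysosomal anchor of the Rag GTPases, 2 were higher in high glucose. LAMTOR3 had 992 and 927 in high glucose against 758 and 715 in low glucose (0.38 ± 0.07, adjusted p = 0.0019). Its further probe set, with 241 and 181 in high glucose against 183 and 189 in low glucose, overlapped and did not pass (0.16, adjusted p = 0.40). LAMTOR5 had 2295 and 2267 in high glucose against 1895 and 1883 in low glucose (0.27 ± 0.05, adjusted p = 0.0036), and its further probe set rose by 0.47. LAMTOR2 (-0.07) and LAMTOR4 (0.10) did not pass.

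GATOR2, which holds GATOR1 in check, was split. SEH1L, which also belongs to the nuclear pore, had signals of 2088 and 1989 in high glucose, against 1241 and 1090.1 in low glucose. It was 1.75-fold higher without overlap (0.81 ± 0.07, adjusted p = 8.4e-05), and its further probe set rose by 0.97 log2 units. MIOS rose by 0.38 (adjusted p = 0.0046), and 1 of its further 2 probe sets was also called higher. WDR24 fell by 0.58 (adjusted p = 0.0019), with 270.2 and 255 in high glucose against 419 and 368 in low glucose. WDR59 stood at 0.14 (adjusted p = 0.19), while a dim probe set of it rose by 1.04 (adjusted p = 0.037).

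RHEB, the GTPase that binds and activates mTORC1, cannot be given a direction. Its brightest probe set had 3496 and 3539 in high glucose against 4189 and 3986 in low glucose (-0.22 ± 0.06, adjusted p = 0.018), and the call was lost without low glucose replicate 1 (adjusted p = 0.13) or 2 (adjusted p = 0.0501). Of its further 7 kept probe sets 3 were called higher. The first, with 1419 and 1376 in high glucose against 1112 and 990.3 in low glucose, rose by 0.41 log2 units. The second, with 1631 and 1503 in high glucose against 1336 and 1332 in low glucose, rose by 0.23. The third, with 71.6 and 50.3 in high glucose against 23.2 and 15.2 in low glucose, rose by 1.68, and its low glucose signals lay below the filter level of 32.9. The brightest is an _x_at probe set, a name that marks probes which may bind other transcripts.

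**Figure D3:**
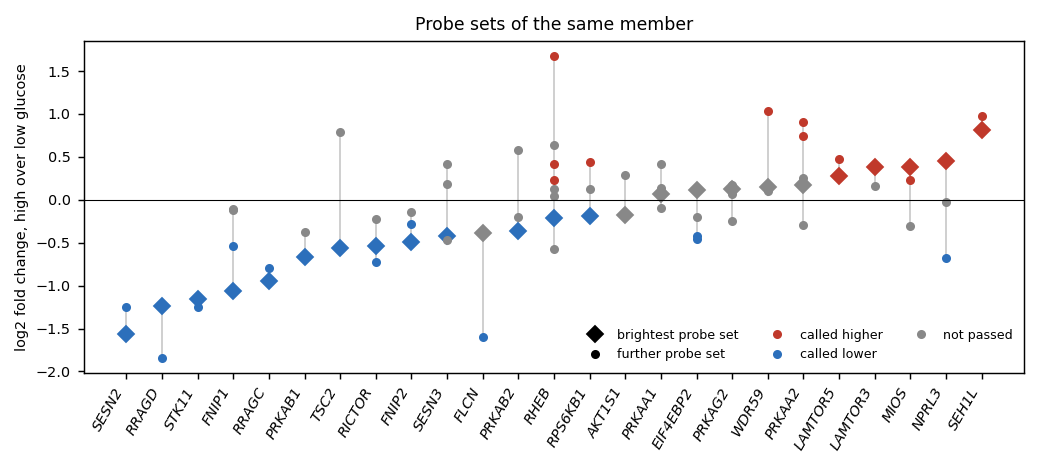
Log2 fold change of high over low glucose for each kept probe set of the 25 members with more than 1, with a diamond for the brightest and circles for the others, coloured by call. SESN2, RRAGD, STK11 and RRAGC lie below 0 with every probe set called, and SEH1L and LAMTOR5 lie above 0 with every probe set called. In contrast, RHEB, RPS6KB1 and NPRL3 hold calls on both sides.

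Across the members called, 35 further probe sets passed the filter, of which 11 were called in the same direction as the brightest, 5 in the opposite direction and 19 did not pass. Over all 27307 kept probe sets 50.4% were called. The 5 opposite calls fell in RHEB, RPS6KB1 and NPRL3.

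Among the subunits of the mTOR complexes and their effectors, 5 of 8 were lower in high glucose, 0 were higher and 3 did not pass. EIF4EBP1, encoding 4E-BP1, which binds the cap-binding protein eIF4E and blocks translation until mTORC1 phosphorylates it, had signals of 1110.0 and 1056 in high glucose, against 2577 and 2637 in low glucose. The replicates lay close together and the groups far apart, so that EIF4EBP1 was 2.41-fold lower (log2 fold change -1.27 ± 0.06, adjusted p = 4.3e-06). EIF4EBP2, its paralog, stood at 0.11 in the brightest probe set (adjusted p = 0.23), but 2 dimmer probe sets fell by 0.42 and 0.46 log2 units.

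The kinase MTOR had 163 and 167 in high glucose against 143 and 188 in low glucose, and stood at 0.01 (adjusted p = 0.98). RPTOR, the scaffold of mTORC1, stood at -0.26 (adjusted p = 0.21). RICTOR, which defines mTORC2, had 829 and 696 in high glucose against 1058 and 1155 in low glucose (-0.54 ± 0.09, adjusted p = 0.0018). Of its further 2 kept probe sets, 1 fell by 0.72 log2 units and the other stood at -0.22 (adjusted p = 0.051). MLST8, shared by both complexes, fell by 0.33 (adjusted p = 0.0013).

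The S6 kinases phosphorylate ribosomal protein S6. RPS6KB2 fell by 0.34 log2 units (adjusted p = 0.013, and adjusted p = 0.077 without high glucose replicate 1). RPS6KB1 had 1095 and 1098 in high glucose against 1256 and 1246 in low glucose in its brightest probe set (-0.19 ± 0.05, adjusted p = 0.019), while another rose by 0.44 log2 units, with 722 and 783 in high glucose against 526 and 582 in low glucose. The RPS6KB1 call was lost after median centring (-0.02, adjusted p = 0.85) and without the trend (adjusted p = 0.078). It was also lost without high glucose replicate 1 (-0.188), high glucose replicate 2 (-0.192) or low glucose replicate 1 (-0.184). Without high glucose replicate 1, 3 of these 8 genes were called lower in place of 5.

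AMPK is a trimer of a catalytic alpha, a scaffolding beta and a nucleotide-binding gamma subunit. Of the 7 genes for its subunits and for LKB1, 4 were lower in high glucose, 0 were higher and 3 did not pass. STK11, the LKB1 gene, had signals of 251 and 340.4 in high glucose, against 654 and 644 in low glucose. The high glucose arrays differed between themselves but both stood well below low glucose, and STK11 was 2.22-fold lower (log2 fold change -1.15 ± 0.14, adjusted p = 2.8e-04). Its further 2 probe sets fell by 1.25 and 1.16 log2 units.

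The STK11 promoter, at chr19:1205528-1205827 on the plus strand of GRCh38.p14, is shown as that of the AMPK pathway gene that differed most, and it holds neither motif.
STK11: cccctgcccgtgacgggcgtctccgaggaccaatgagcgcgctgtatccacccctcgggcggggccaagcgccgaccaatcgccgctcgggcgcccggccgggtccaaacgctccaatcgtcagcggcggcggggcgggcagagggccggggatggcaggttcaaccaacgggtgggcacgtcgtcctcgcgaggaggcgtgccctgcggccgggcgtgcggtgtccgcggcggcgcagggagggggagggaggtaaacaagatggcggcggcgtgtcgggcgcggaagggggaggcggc
Neither catalytic subunit passed in its brightest probe set. PRKAA1 had 352 and 360.0 in high glucose against 337 and 340.2 in low glucose, at a log2 fold change of 0.07. PRKAA2 stood at 0.17 (adjusted p = 0.18), and 2 dimmer probe sets of it rose by 0.75 and 0.90 log2 units.

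Both beta subunit genes were called lower in high glucose in their brightest probe sets. PRKAB1 had 339 and 299 in high glucose against 487 and 522 in low glucose (-0.66 ± 0.09, adjusted p = 6.6e-04), and its further probe set stood at -0.37 and did not pass (adjusted p = 0.078). PRKAB2 fell by 0.37 (adjusted p = 0.010), a call lost without low glucose replicate 2 (adjusted p = 0.0503), and its further 2 probe sets did not pass. Of the gamma subunits, PRKAG1 fell by 0.25 (adjusted p = 0.033), a call lost without high glucose replicate 2 (adjusted p = 0.17) and without low glucose replicate 1 (adjusted p = 0.12). PRKAG2 stood at 0.12 (adjusted p = 0.36).

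Of 63 further genes around these pathways, 57 were measured, and 21 were lower, 11 higher and 25 did not pass. The share called was 56.1%, with 36.8% lower and 19.3% higher, near that of all genes (57.6%, 33.3% and 24.3%). In the single lists, of 6 to 15 measured genes, it ran from 33.3% to 77.8%. Among mTORC1 substrates and downstream factors 8 of 15 fell and 3 rose. LPIN1, a phosphatidate phosphatase and lipid regulator, had 238 and 235 in high glucose against 636 and 558 in low glucose (-1.33 ± 0.09, adjusted p = 2.5e-05). ATG13, of the autophagy-initiating complex, fell by 0.96, EIF4B, a translation initiation factor, fell by 0.84, and GRB10, an adaptor that dampens insulin signalling, fell by 0.68. TFEB, the lysosomal transcription factor, was dim and stood at -0.69 (adjusted p = 0.051), and EIF4G1 stood at 0.06.

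Of 9 AMPK substrates 5 fell and 2 rose. FOXO3 fell by 0.87 log2 units, CRTC2, a CREB coactivator, fell by 0.83, and ACACB, the mitochondrial acetyl-CoA carboxylase, fell by 1.04, while MFF, a mitochondrial fission factor, rose by 0.34. TBC1D1 and TBC1D4, which control glucose transporter traffic, did not pass (-0.04 and -0.21). Of 12 AMPK-related kinases 3 fell and 1 rose. The one that rose was NUAK1, with 820.2 and 772 in high glucose against 328 and 332 in low glucose (1.27 ± 0.07, adjusted p = 1.1e-05), while MELK fell by 0.38, MARK4 by 0.36 and SNRK by 0.32.

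Among AMPK kinases and LKB1 partners 2 of 7 fell and 1 rose. CAMKK1, a calcium-dependent kinase, fell by 0.84 log2 units and CAB39, the MO25 scaffold of LKB1, fell by 0.20, while STRADA, its pseudokinase partner, rose by 0.21. CAMKK2 stood at -0.07. Of 8 other amino acid sensing genes 3 fell and 2 rose. KICS2, of the KICSTOR scaffold that tethers GATOR1, rose by 1.42 (adjusted p = 7.1e-04), with 200.1 and 183 in high glucose against 60.9 and 84.6 in low glucose, and its partners KPTN and ITFG2 fell by 0.60 and 0.37. SLC38A9, a lysosomal arginine sensor, fell by 0.33. Of 6 further mTORC2 subunits and mTOR folding factors, 2 rose, the folding factors TTI1 by 0.53 and TELO2 by 0.23, and 0 fell. The mTORC2 subunits of this list did not pass, among them MAPKAP1 (0.03) and PRR5 (0.19). RICTOR and MLST8, also part of mTORC2, are members and were called lower.

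**Figure D4:**
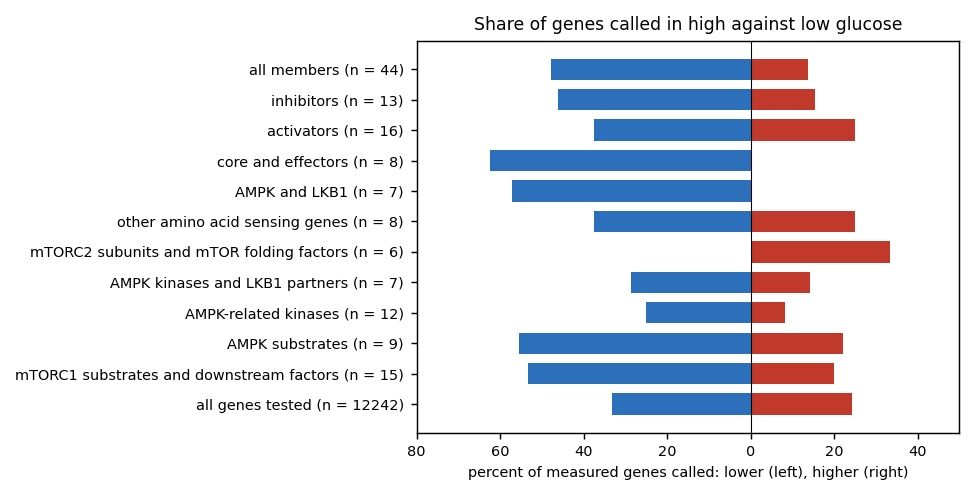
Percent of the measured genes called lower (bars to the left) and higher (bars to the right) in high against low glucose, for the members, their 4 roles, 6 lists of further pathway genes and all genes tested. Core and effector genes (8 measured) and AMPK genes (7 measured) hold no call to the right. Of all genes, 24.3% lie to the right and 33.3% to the left.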

How the data were processed

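RNA of 4 HEK293 samples was measured on single-colour Affymetrix arrays with biotin-labelled cRNA, per the labels. The intensity values deposited by the authors are on a linear scale, and the submitters' processing notes name GCOS without a version. Their 2% trimmed means were equal on all arrays, so they had been scaled. The sources used here name no further step.

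Of 54675 probe sets, 62 controls were left out. Signals were log2-transformed without a pseudocount or further normalization, and kept at a mean signal of 32.9 (the median) or more, which left 27307 probe sets. Platform annotation named 1 gene for 41097 probe sets, several for 1801 and none for 11777. Symbols were updated by gene identifier through RefSeq GRCh38.p14 (41043 matched). The brightest kept probe set stood for each gene. The comparison of high and low glucose used limma 3.58.1 with R 4.3.3 (lmFit, eBayes with an intensity trend), two-sided, with Benjamini-Hochberg adjustment over 12242 genes, or over 27307 probe sets for further probe sets. The threshold was an adjusted p of 0.05. The test was checked on simulated data with independent noise and a far smaller share of differing genes than was called here. That check therefore does not show how reliable the calls are. Fold changes are high over low glucose, with standard errors from the fit. The number of arrays limits the precision.

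Members and lists were chosen with earlier results of these data known. Every member is named. Values on each array are given for called members with an absolute log2 fold change of 0.8 or more, for the smallest p in each role and for probe sets in opposite directions. Those of further members, and the promoters discussed with them, were chosen after the values were seen. From the other lists, up to 4 genes with the smallest p and up to 2 that did not pass are named. Alternatives covered normalization, filter, pseudocount, trend, choice of probe set, the replicate number as a block and leaving out each array.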

Additional observations from a re-analysis of the deposited data

How the results depend on the processing

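Median centring gave 13 members higher and 13 lower (6 and 21 with the authors' scaling), with 1 and 2 among core and effector genes, 7 higher activators, 4 higher inhibitors, 1 and 2 among AMPK genes, and a member median of -0.082. The member median was -0.20 after cyclic loess and -0.12 with the mean of probe sets. Without the trend, 3 core and effector genes were lower and 1 inhibitor was higher. With the mean of probe sets, 1 inhibitor was higher. Without _x_at and _s_at probe sets, 1 inhibitor was higher and 2 were lower, among 8 measured in place of 13. Leaving out each array gave 3 to 5 core and effector genes lower, 1 to 3 inhibitors higher and member medians of -0.29 to -0.20. These fits assume that the lone array left in a group varies like the other group. The sign turned with the mean of probe sets for RPS6KB1 (0.13), EIF4EBP2 (-0.24), RHEB (0.29), TSC2 (0.12), NPRL3 (-0.084), AKT1S1 (0.058) and PRKAB2 (0.004), and without _x_at and _s_at probe sets for EIF4EBP2 (-0.42), RHEB (0.41), TSC2 (0.79) and PRKAG2 (-0.25). It also turned for uncalled members, namely RRAGA after quantile normalization (-0.005), and LAMTOR2 (0.10) and DEPDC5 (0.008) after median centring. With an array left out, it turned for MTOR (-0.19 to 0.20), LAMTOR2 (-0.15 to 0.005), DEPDC5 (-0.38 to 0.05) and AKT1S1 (-0.46 to 0.11). The mean and the choice of probe sets differ by construction in the probes used, and for the other settings the cause was not tested. DDIT4, SESN2, RRAGD and SEH1L have only _s_at probe sets and no value without these. The labels do not say that a replicate number marks a shared batch, and deviations of arrays with the same number did not correlate (r = -0.004, across genes). With the replicate block, 7 members were higher and 21 lower, and SESN1 passed (adjusted p = 0.048).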

Other observations

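Probe sets below the filter were outside the comparison. NPRL2 has one with 4.59 and 13.3 in high glucose, against 51.3 and 62.9 in low glucose. FLCN has one with 7.22 and 11.9 in high glucose, against 45.4 and 38.1 in low glucose. In both the arrays of the groups do not overlap, and such dim signals carry no statement of presence. Of 115 probe sets of members, 96 passed the filter.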
